A study of Homo sapiens with 4 samples.

Results

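The canonical histone genes encode the core histones H2A, H2B, H3 and H4, around which DNA is wrapped, and the linker histone H1, which binds where DNA enters and leaves the core. They were chosen by symbol, as every gene of the clustered families H1-1 to H1-6, H2AC, H2BC, H3C and H4C that a probe set of the array names alone. The rule found 42 genes on 48 probe sets, of 19775 genes that a probe set names alone. They comprised 6 H1, 8 H2A, 13 H2B, 7 H3 and 8 H4 genes, 40 of them on chromosome 6 and 2, H2AC25 and H2BC21, on chromosome 1. Their transcripts were measured in SKOV3, an established line from a human ovarian carcinoma, on 4 Affymetrix expression arrays. The groups were SKOV3 cells treated with rhSTIP1 (2 arrays), read as the recombinant human form of the cochaperone STIP1, and SKOV3 cells without it (2 arrays, here called control). The sources used here give no dose, duration or vehicle, and no label tells whether replicate arrays came from separate cultures. The p-values therefore cover only the spread between these 4 samples, and that spread may be technical.

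Canonical histone genes are transcribed mainly in S phase, when new DNA must be packaged, and most of their mRNAs end in a conserved stem-loop bound by SLBP instead of a poly(A) tail. Some of the genes also give polyadenylated transcripts from signals further downstream, known best from cells that divide slowly or have differentiated. Arrays of this kind are usually labelled from a primer that pairs with the poly(A) tail, so a stem-loop transcript is poorly seen on them. The labels name only the maker's standard protocol, and the share of each histone transcript that carried a tail was not measured here.

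The promoters of 4 tested members are shown because they carry the elements that the histone classes share or lack. Each is the RefSeq window of 300 bases in build GRCh38.p14, from 250 bases before the start of the gene to 50 after it, written 5′ to 3′ on the gene's strand. Capitals mark matches on either strand to the CCAAT box (CCAAT), the TATA box (TATAAA), the octamer known from H2B promoters (ATTTGCAT) and the AC box known from H1 promoters (AAACACA). H1-2 lies at chr6:26056421-26056720 on the minus strand, H2AC14 at chr6:27814728-27815027 on the minus strand, H2BC12 at chr6:27146809-27147108 on the minus strand and H4C11 at chr6:27823842-27824141 on the plus strand.
H1-2: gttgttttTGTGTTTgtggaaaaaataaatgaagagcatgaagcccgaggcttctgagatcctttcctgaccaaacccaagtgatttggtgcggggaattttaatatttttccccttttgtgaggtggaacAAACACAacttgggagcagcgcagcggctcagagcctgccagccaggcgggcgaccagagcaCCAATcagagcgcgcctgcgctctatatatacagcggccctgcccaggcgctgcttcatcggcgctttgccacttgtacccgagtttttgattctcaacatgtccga
H2AC14: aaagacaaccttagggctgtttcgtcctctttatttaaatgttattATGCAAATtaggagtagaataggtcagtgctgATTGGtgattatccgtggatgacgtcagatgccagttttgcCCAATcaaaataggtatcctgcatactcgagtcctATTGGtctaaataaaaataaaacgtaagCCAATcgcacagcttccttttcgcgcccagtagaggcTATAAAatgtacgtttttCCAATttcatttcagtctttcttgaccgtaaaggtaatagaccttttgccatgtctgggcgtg
H2BC12: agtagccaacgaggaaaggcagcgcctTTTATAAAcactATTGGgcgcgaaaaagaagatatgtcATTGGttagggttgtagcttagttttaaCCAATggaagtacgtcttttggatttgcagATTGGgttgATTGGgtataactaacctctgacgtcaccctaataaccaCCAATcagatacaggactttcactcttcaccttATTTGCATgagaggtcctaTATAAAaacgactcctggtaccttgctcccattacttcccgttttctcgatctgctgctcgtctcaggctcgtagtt
H4C11: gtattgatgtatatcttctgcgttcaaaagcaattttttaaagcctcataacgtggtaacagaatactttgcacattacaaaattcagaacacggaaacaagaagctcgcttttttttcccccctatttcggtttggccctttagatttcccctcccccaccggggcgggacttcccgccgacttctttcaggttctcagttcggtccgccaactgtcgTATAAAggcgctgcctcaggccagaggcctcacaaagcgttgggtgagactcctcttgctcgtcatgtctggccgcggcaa

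The H1-2 window held 2 AC boxes and 1 CCAAT box, and the H4C11 window held 1 TATA box and no other match. The H2AC14 window held 5 CCAAT boxes, 1 TATA box and 1 octamer, and the H2BC12 window held 6 CCAAT boxes, 3 TATA boxes and 1 octamer. In H2BC12, TATA matches on opposite strands overlap in 1 run of capitals, and each was counted. Of the 42 members, 40 had a window in the table, and H3C11 and H4C1 had none. The AC box was in all 6 H1 windows and in none of the other member windows, against 5.64% of all 35116 promoters. The octamer was in 6 of 8 H2A and 10 of 13 H2B windows and in none of the H1, H3 and H4 windows, against 1.77% of all promoters. The CCAAT box was in every H1, H2A, H2B and H3 window but in only 2 of 7 H4 windows, against 34.6% of all promoters, and the TATA box was in 27 of 40, against 11.5%. Some H2A and H2B windows are the same DNA read from opposite strands, so their matches are not separate. These are matches of letters and say nothing of binding.

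For a gene with several probe sets, the one of highest mean MAS5 signal over the 4 arrays was used. This signal is a linear brightness that the authors' software scaled to a common level on every array. Genes with a mean of at least 69.4, the median over all probe sets, were tested. Of the 42 members 11 passed this level and 31 did not. The means of those that did not ran from 3.93 to 60.1 (H4C8), and the lowest mean among those that passed was 85.8 (H2AC14). By class 1 of 6 H1, 3 of 8 H2A, 5 of 13 H2B, 1 of 7 H3 and 1 of 8 H4 genes passed. Without detection calls in the table, dim signals were not told from background. Probe sets bind with different strength, so signals are compared between arrays and not between genes.

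**Figure D1:**
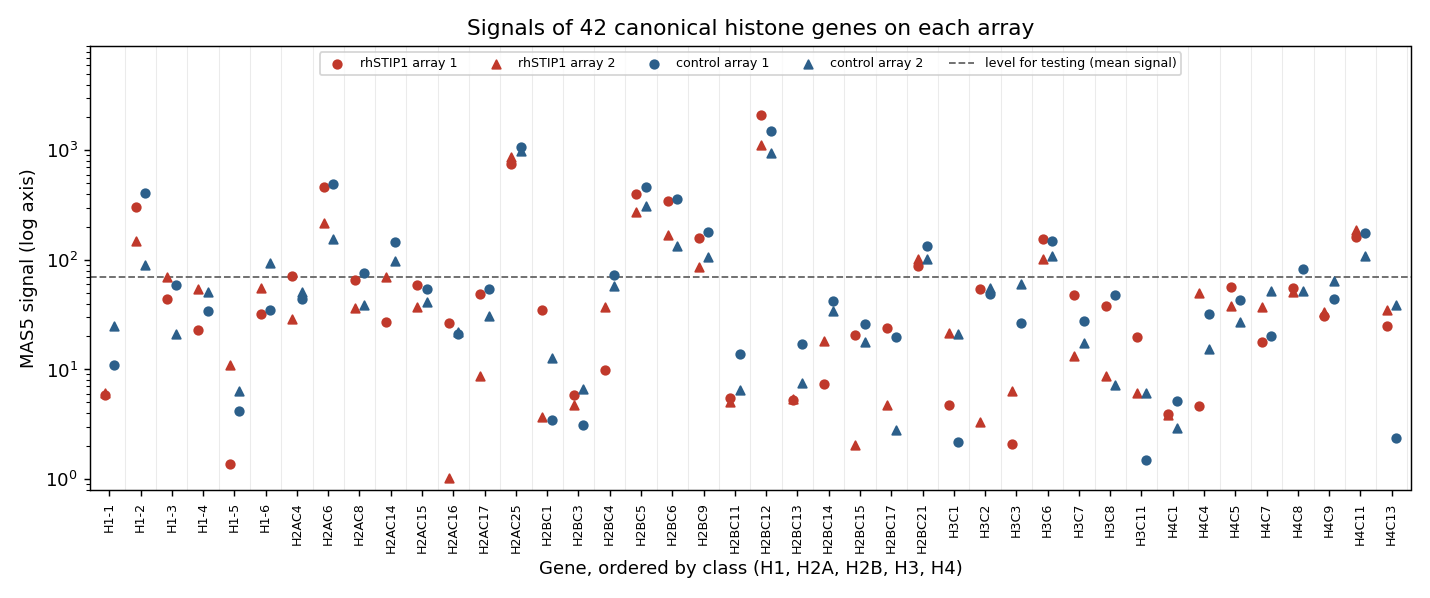
MAS5 signal on a log axis (points) of all 42 canonical histone genes on the 4 arrays, rhSTIP1 in red at the left of each gene and control in blue at the right, circles for array 1 and triangles for array 2. The dashed line is the level of 69.4 that the mean of a gene had to reach for testing, and 31 of the 42 genes lie under it.

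Signals of most tested histone genes did not separate rhSTIP1 from control cells. Of the 11 tested members 5 had a log2 fold change above 0 and 6 below, with a median of −0.0044, against 0.02 over all 12296 genes tested. No overlap between the rhSTIP1 and control arrays was seen for 3 members, H2AC14, H2AC25 and H2BC21, all lower with rhSTIP1, where 14.9% of all tested genes did not overlap and were lower, and 28.9% did not overlap in either direction. Only H2AC14 also differed by at least 1.5-fold, 1 of 11 members, where 5.69% of all tested genes did so in either direction and 3.79% were lower. By limma's test H2AC14 was also the 1 member with an unadjusted p under 0.05, against 3.68% of all genes. The mean of its rhSTIP1 arrays was under 69.4, so H2AC14 passed the level only through the control arrays, where it is high, and both counts are descriptions that support nothing. Over all genes 0 of 12296 had an adjusted p under 0.05 (0.0%), and every tested member had an adjusted p of 0.999. At this size, 2 against 2, the smallest p of an exact permutation test (two-sided) for 1 gene is 0.333. In a bulk sample fewer cells in S phase and less histone RNA per cell cannot be told apart.

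H1-2, a linker histone gene, had signals of 304.8 and 148.4 with rhSTIP1 and 411.8 and 90.2 in control cells. Both rhSTIP1 arrays lay between the 2 control arrays, which were themselves 4.56-fold apart. The log2 fold change was 0.11 ± 0.64 (here and below ± is the standard error of the limma model, n = 2 arrays a group). The other 5 H1 genes stayed under the level for testing, with means from 5.73 (H1-5) to 54.3 (H1-6, the testis-specific linker histone).

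Of the H2A genes, H2AC14 had signals of 27.2 and 70.1 with rhSTIP1 and 147.0 and 98.8 in control cells. Both rhSTIP1 arrays lay below both controls, but the level for testing falls within this range and the rhSTIP1 arrays differed by more than the controls did. The log2 fold change was −1.17 ± 0.48, or 2.24-fold lower, with an unadjusted p of 0.0421 by limma's test and an adjusted p of 0.999. It was −0.67 without rhSTIP1 array 1 and −1.66 without rhSTIP1 array 2, and without rhSTIP1 array 1 or control array 1 its unadjusted p was 0.234 or 0.165. With 1 array left out, here and below, the spread comes from the other group and the other genes, which is taken to hold for the single array too. H2AC25, listed under its older symbol H2AW in some annotations, had 753.7 and 877.6 with rhSTIP1 and 1077 and 994.7 in control cells. Its arrays did not overlap either. The difference was small, at −0.34 ± 0.24 or 1.27-fold lower. A second probe set of H2AC25, under the level, was also lower, at 29.7 and 28.2 with rhSTIP1 against 49.6 and 39.7. H2AC6 had 461.9 and 217.5 with rhSTIP1 and 490.8 and 156.7 in control cells, with the rhSTIP1 arrays again between the controls and a log2 fold change of 0.18 ± 0.54.

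The H2B genes were the class with the most tested members. H2BC12, one of the genes known to give a polyadenylated transcript, had 2095 and 1120 with rhSTIP1 and 1492 and 941.2 in control cells. The arrays overlapped, and the log2 fold change of 0.37 ± 0.36 was the highest of the 11 members. H2BC12L, a close relative on another chromosome that the symbol rule leaves out, had a like pattern, with 770.1 and 410.8 with rhSTIP1 and 516.0 and 313.4 in control cells. Its probe set carries the maker's mark for probes that may bind related transcripts, so the signals of the 2 genes may not be separate.

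H2BC21, also known for a polyadenylated transcript, had 87.8 and 102.5 with rhSTIP1 and 134.3 and 102.6 in control cells. The groups did not overlap, but rhSTIP1 array 2 and control array 2 were all but equal, and the difference was −0.27 ± 0.36. H2BC5 had 397.0 and 274.6 with rhSTIP1 and 460.4 and 308.2 in control cells, at −0.18 ± 0.32. Its second probe set above the level had 338.6 and 154.6 with rhSTIP1 and 337.5 and 142.3 in control cells, a log2 fold change of 0.06, so the direction for H2BC5 differed between its probe sets. H2BC6 had 344.8 and 169.4 with rhSTIP1 and 358.3 and 134.7 in control cells, at 0.12 ± 0.50. H2BC9 had 157.7 and 86.1 with rhSTIP1 and 179.3 and 106.7 in control cells, at −0.22 ± 0.42. For H2BC5, H2BC6 and H2BC9 the arrays overlapped, and in each group array 1 was well above array 2.

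A single H3 gene and a single H4 gene were tested. H3C6 had 154.7 and 102.4 with rhSTIP1 and 148.1 and 107.9 in control cells, which is the same range in both groups, at −0.0044 ± 0.37. A second probe set of H3C6, under the level, had 70.1 and 38.3 with rhSTIP1 and 70.7 and 56.0 in control cells. It overlapped too, at −0.21 in the fit without the level. H4C11 had 163.5 and 189.7 with rhSTIP1 and 177.1 and 108.0 in control cells, at 0.31 ± 0.35, with overlap.

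**Figure D2:**
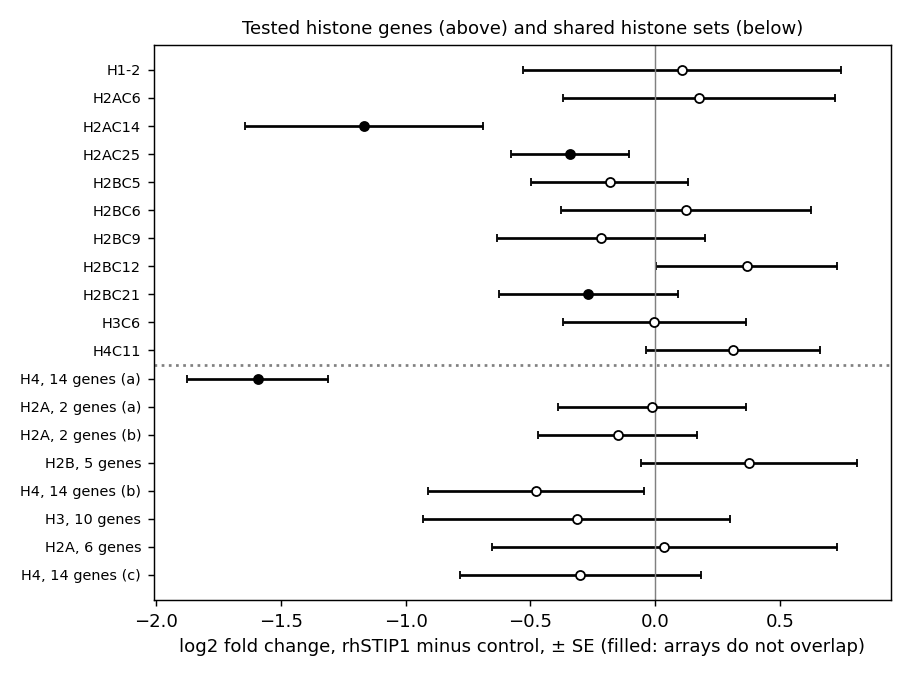
Log2 fold change, rhSTIP1 minus control, on the log2(signal + 16) scale with its standard error, for the 11 tested histone genes (above the dotted line) and the 8 tested probe sets that name several histone genes (below it). Filled points mark the 4 whose arrays did not overlap between groups, all below 0, and the lowest is a probe set shared by 14 H4 genes at −1.59. Of all tested genes 14.9% were lower without overlap, and of 27307 probe sets above the level 4208 were.

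The gaps between arrays of the same group were wider than the difference between the groups for most tested members. Control array 1 was above control array 2 for 11 of 11 members, by a median of 0.64 on the log2 scale, while over all tested genes control array 1 was above for 46.8%, with a median of −0.03. rhSTIP1 array 1 was above rhSTIP1 array 2 for 7 of the 11, by a median of 0.53, against 46.4% of all genes and a median of −0.04. The exceptions were H2AC14, H2AC25, H2BC21 and H4C11. The control gap exceeded the group difference in size for 9 of 11 members, all but H2AC14 and H2AC25, and for 64.7% of all tested genes. The median of the members and the names of those separated changed with the array left out. Without control array 1 the median of the 11 members was 0.20, and 5 were separated higher (H1-2, H2AC6, H2BC6, H2BC12 and H4C11) and 1 lower (H2AC14), while 8.64% of all genes were separated. Without control array 2 it was −0.46, and 3 were separated lower (H1-2, H2AC6 and H2AC14) and 0 higher, while 16.1% of all genes were separated. It was −0.34 without rhSTIP1 array 1 and 0.21 without rhSTIP1 array 2.

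**Figure D3:**
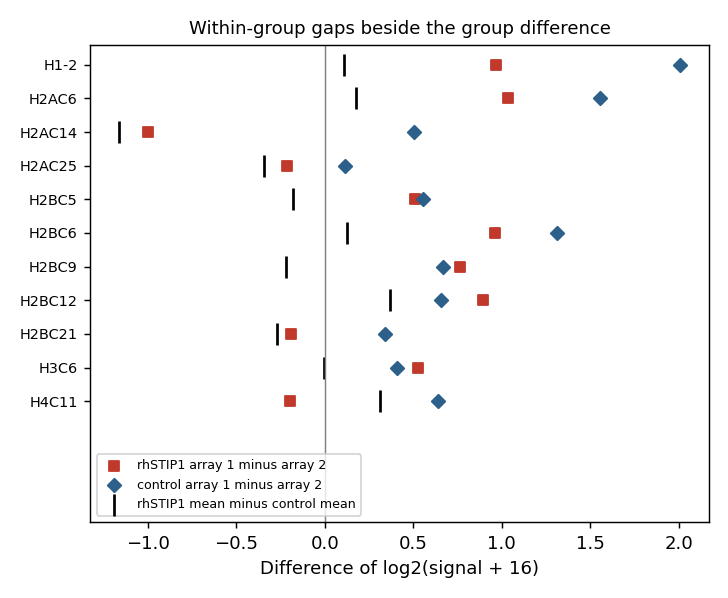
For each of the 11 tested histone genes, the difference of log2(signal + 16) between array 1 and array 2 of the rhSTIP1 group (red squares) and of the control group (blue diamonds), and the difference of the group means, rhSTIP1 minus control (black bars). All 11 diamonds lie above 0 and 9 of them lie further from 0 than the bar of the same gene.

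The arrays were otherwise alike in scale. Median signals were 69.0 and 69.0 on the rhSTIP1 arrays and 66.0 and 79.2 on the controls, and Pearson correlations between arrays over the tested genes, which are not replicates, ran from 0.952 to 0.979. The ACTB probe sets gave a 3′ to 5′ signal ratio, a measure of RNA degradation, of 2.62 and 8.79 on the rhSTIP1 arrays and 2.74 and 2.45 on the controls, and its part in the histone values was not tested. The same ratio for GAPDH was 0.992 and 1.32 on the rhSTIP1 arrays and 0.987 and 1.16 on the controls. Of the markers of epithelial and SKOV3 cells 7 of 7 were above the level for testing, KRT7, KRT8, KRT18, KRT19, EPCAM, ERBB2 and PAX8. Of the leukocyte markers 0 of 3 were above it, of the endothelial markers 1 of 3 (PECAM1) and of the fibroblast markers 2 of 3 (COL1A1 and DCN).

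Fitted without the level, all 42 members had a median log2 fold change of −0.10, against 0.01 over all 19775 genes, and 27 were below 0. For 10 of the 42 the arrays did not overlap, all lower with rhSTIP1, where 15.8% of all genes did not overlap and were lower. Of these, 5 also differed by at least 1.5-fold, where 6.23% of all genes did so and were lower. Besides H2AC14 they were H1-1, H2BC4, H2BC14 and H3C3, named after their values were seen and all under the level. H3C3 had 2.07 and 6.40 with rhSTIP1 and 26.7 and 60.7 in control cells, and H2BC4 had 9.85 and 37.3 with rhSTIP1 and 73.2 and 57.4 in control cells. H2BC14 had 7.43 and 18.2 with rhSTIP1 and 42.3 and 34.4 in control cells, and H1-1 had 5.88 and 6.09 with rhSTIP1 and 11.1 and 25.1 in control cells. MAS5 signals this low vary widely between arrays.

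H2A and H2B genes often lie head to head and share 1 promoter, and 4 such pairs were among the members by overlap of their promoter windows on opposite strands. H2AC14 and H2BC14 share 256 bases of their windows, and the arrays of both genes were lower with rhSTIP1 without overlap, at −1.17 and −0.94. In the other pairs at most 1 of the genes was without overlap. H2BC4 was at −1.12 without overlap while its partner H2AC6 was at 0.18, and H2AC15 was at −0.01 beside H2BC15 at −0.55. H2AC17 was at −0.52 and H2BC17 at 0.15. At least 1 gene of each pair was under the level for testing.

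Histone genes of a class are near copies of each other, and the array reads many of them together. Of the 11 tested members 4 (H1-2, H2AC25, H2BC12 and H3C6) were read by probe sets with the maker's plain suffix. Sets marked as open to cross-binding read 5 (H2AC14, H2BC5, H2BC6, H2BC9 and H4C11), so their signals may include related transcripts. Sets marked as matching several transcripts read 2 (H2AC6 and H2BC21). A further 20 probe sets name several canonical histone genes and belong to no member, and 19 histone genes are named by such sets alone. In a fit over all probe sets, added after the data were seen, 8 of the 20 passed the level and 1 was separated by at least 1.5-fold, where 4.35% of 27307 probe sets were separated and lower.

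That probe set names 14 H4 genes (H4C1 to H4C6, H4C8, H4C9 and H4C11 to H4C16), among them the tested member H4C11. It had signals of 4360 and 7954 with rhSTIP1 and 18935 and 16758 in control cells. Both rhSTIP1 arrays lay far below both controls, and the controls differed by less than the groups did. The log2 fold change was −1.59 ± 0.28, or 3.02-fold lower, with an unadjusted p of 5.2e-04 and an adjusted p of 0.736 by limma's test over all probe sets. It was −1.16 without rhSTIP1 array 1, −2.03 without rhSTIP1 array 2, −1.51 without control array 1 and −1.68 without control array 2. The adjusted p was 0.0463 without rhSTIP1 array 2 and was 0.155 or above without each of the other arrays.

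The other tested H4 sets, which name the same 14 genes, did not show this separation. One had 65.0 and 141.9 with rhSTIP1 and 175.6 and 113.4 in control cells, at −0.48 ± 0.43, and the other had 72.9 and 67.6 with rhSTIP1 and 145.4 and 53.8 in control cells, at −0.30 ± 0.48. Which of the 14 genes give the signal of each set is not known from the table. The H4C11 set alone, also dim with a mean of 159.6, was at 0.31 ± 0.35.

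Shared sets of the other classes overlapped between groups. A set for H2AC18 and H2AC19 had 1106 and 754.3 with rhSTIP1 and 1299 and 652.3 in control cells, at −0.01 ± 0.38. A second set for the same pair of genes had 676.9 and 473.9 with rhSTIP1 and 770.9 and 515.7 in control cells, at −0.15 ± 0.32. A set for 5 H2B genes was at 0.38 ± 0.43, a set for 10 H3 genes at −0.31 ± 0.62 and a set for 6 H2A genes at 0.04 ± 0.69. In all 5 of these sets array 1 was above array 2 in both groups.

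**Figure D4:**
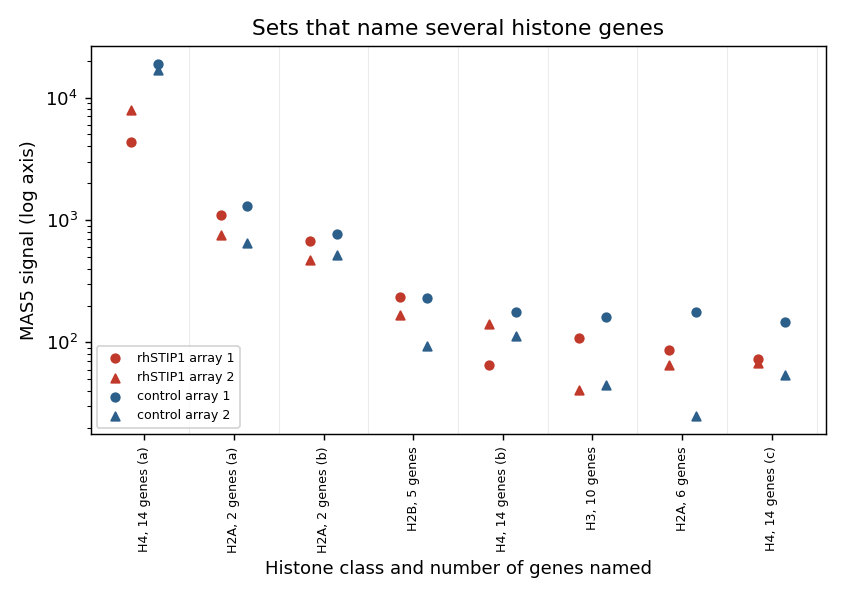
MAS5 signal on a log axis of the 8 tested probe sets that name several canonical histone genes, labelled by class and number of genes named, rhSTIP1 in red at the left and control in blue at the right, circles for array 1 and triangles for array 2. The first H4 set is the only one of the 8 whose groups do not overlap, at 4360 and 7954 with rhSTIP1 and 18935 and 16758 in control cells. Of 27307 probe sets above the level 4208 were lower without overlap.

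Replication-independent histone variants, whose mRNAs are polyadenylated and are made outside S phase too, were read well. Of 12 listed genes 9 were tested, with a median log2 fold change of −0.29, 3 above 0 and 6 below, and 1, H2AX, was separated by at least 1.5-fold and lower, against 3.79% of all genes. That median shrank to −0.01 when rhSTIP1 array 2 was left out and to −0.02 when control array 1 was. Leaving out rhSTIP1 array 1 gave −0.31, and leaving out control array 2 gave −0.39. H2AX, which is phosphorylated beside DNA breaks and is known to give both stem-loop and polyadenylated transcripts, had 3152 and 4189 with rhSTIP1 and 9182 and 6152 in control cells. Both rhSTIP1 arrays were below both controls, at −1.05 ± 0.27 or 2.06-fold lower, with an unadjusted p of 0.00495 and an adjusted p of 0.702. CENPA, the H3 variant of centromeres, had 2128 and 561.4 with rhSTIP1 and 4375 and 1606 in control cells, and its arrays overlapped, at −1.26 ± 0.65.

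H1-10, a linker histone variant, had 5377 and 6216 with rhSTIP1 and 6886 and 7265 in control cells, lower without overlap by −0.29 ± 0.20. MACROH2A2, an H2A variant with a large additional domain that is linked to silent chromatin, had 1036 and 964.9 with rhSTIP1 and 618.8 and 881.4 in control cells, higher without overlap by 0.43 ± 0.26. H2AZ2 (−0.41 ± 0.38), H2AJ (−0.30 ± 0.29), H2AZ1 (−0.16 ± 0.20), MACROH2A1 (0.04 ± 0.18) and H3-3A (0.31 ± 0.39) overlapped between groups.

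Factors that make histone mRNA showed small differences. SLBP, which binds the stem-loop and directs processing and translation, had 4322 and 4672 with rhSTIP1 and 4478 and 4617 in control cells, at −0.02 ± 0.20. NPAT, the cyclin E and CDK2 substrate that switches on histone genes, had 494.3 and 602.7 with rhSTIP1 and 706.7 and 802.3 in control cells, lower without overlap at −0.45 ± 0.25. Of 7 tested genes of histone gene transcription 1 was above 0 and 6 below, with a median of −0.29, and 0 were separated by at least 1.5-fold. CASP8AP2, which works with NPAT at histone loci, was also lower without overlap, at −0.29 ± 0.25. NPAT and CASP8AP2 were the 2 of the 7 genes lower without overlap, where 14.9% of all tested genes were. Of 12 genes of stem-loop end processing 3 were above 0 and 9 below, with a median of −0.13, and 0 were separated by that fold. Lower without overlap were 3 of these 12 genes, where 14.9% of all tested genes were. Of these 3, LSM11 and ZNF473, which belong to or bind the U7 particle that cuts histone mRNA, were at −0.36 ± 0.26 and −0.58 ± 0.32. SYMPK, the third, was at −0.18 ± 0.24. LSM10, also a protein of the U7 particle, overlapped between groups at 0.03 ± 0.23.

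Of 10 tested genes of histone mRNA decay 4 were above 0 and 6 below, with a median of −0.18, and 0 were separated by at least 1.5-fold. The decapping enzyme DCP2 came near it, at −0.57 ± 0.23 without overlap. Of the 10 genes 3, DCP2 among them, were lower without overlap, where 14.9% of all tested genes were. Of 11 tested general polyadenylation factors 3 were above 0 and 8 below, with a median of −0.10. The 1 separated gene, PCF11, a factor that links 3′ end cleavage to the end of transcription, had 494.1 and 380.6 with rhSTIP1 and 702.0 and 677.6 in control cells, at −0.65 ± 0.25. Its adjusted p was 0.999 by limma's test, and 3.79% of all tested genes were separated and lower.

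Of 23 histone chaperones 8 were above 0 and 15 below, with a median of −0.08, and 2 were separated by at least 1.5-fold, both lower, against 3.79% of all genes. ASF1B, which hands new H3 and H4 to the assembly factors in dividing cells, had 566.1 and 529.4 with rhSTIP1 and 1337 and 1056 in control cells. Its difference was −1.10 ± 0.25 or 2.14-fold lower, with an unadjusted p of 0.00247 and an adjusted p of 0.702. HJURP, the chaperone of CENPA, had 324.0 and 492.6 with rhSTIP1 and 2584.3 and 1537.5 in control cells, at −2.27 ± 0.33. By limma's test its unadjusted p was 1.8e-04 and its adjusted p 0.486. ASF1A, the relative of ASF1B that is made through the cell cycle, had 2520 and 1825 with rhSTIP1 and 2356 and 2191 in control cells, at −0.08 ± 0.25. Among the other listed genes that handle new H3 and H4, CHAF1A (−0.38 ± 0.31), CHAF1B (−0.32 ± 0.44) and NASP (−0.03 ± 0.21) overlapped between groups. RBBP4 (0.08 ± 0.24) and RBBP7 (−0.12 ± 0.22) overlapped too. HAT1 was lower without overlap at −0.22 ± 0.21, as were 4 of the 23 in all, against 14.9% of all tested genes.

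Beside these, 23 of 24 tested S phase genes were below 0, with a median of −0.44, and 9 were separated lower by at least 1.5-fold. Of all 12296 genes 5757 were below 0 and 3.79% were separated lower. Those with the smallest p were RRM2 (−1.78 ± 0.48), RFC4 (−0.68 ± 0.22), TYMS (−0.93 ± 0.31), CDT1 (−0.97 ± 0.33) and PRIM1 (−0.67 ± 0.24). The median of the S phase genes was −0.09 without rhSTIP1 array 1. The difference between the 11 canonical histone genes and any of these lists was not tested. The lists were chosen with earlier results of these data known, so their counts are descriptions only.

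**Figure D5:**
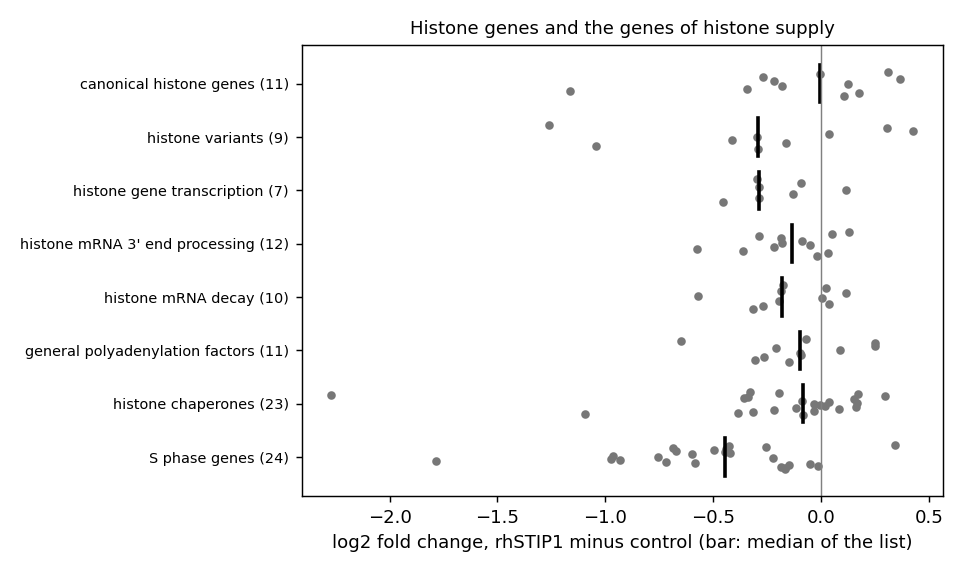
Log2 fold change, rhSTIP1 minus control, of each tested gene (points) and the median of each list (bars), with the number of tested genes in brackets. The 11 canonical histone genes have a median of −0.0044, the histone variants −0.29 (−0.39 to −0.01 with 1 array left out) and the S phase genes −0.44 (−0.74 to −0.09).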

How the data were processed

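Total RNA of SKOV3 cells was read on 4 arrays, 2 with rhSTIP1 and 2 controls, grouped by their labels. The deposited values are MAS5 signal intensity per probe set, which the authors made, per the submitters' processing notes, in Affymetrix Expression Console 1.1, on a linear scale with a 2% trimmed mean of about 500.1 on each array. MAS5 subtracts mismatch probes, so low signals vary widely. Of 54675 probe sets, 62 controls were left out, 41091 named 1 gene, 1801 several and 11721 none in the platform annotation.

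Signals were taken as log2(signal + 16) with no further scaling, which understates the change of dim genes. Each gene was given by its probe set of highest mean, and genes with a mean of at least 69.4 were tested with limma 3.58.1 in R 4.3.3 (eBayes with trend, Benjamini-Hochberg over all 12296 genes). A gene was called separated when its groups did not overlap and their means differed by at least 1.5-fold. The fit was tested on simulated data. The precision is limited by the number of arrays. Alternatives were pseudocounts of 1 and 64, no filter, a filter at the 70th percentile, median centring, quantile normalization, averaged probe sets, plain probe sets, no trend, a replicate block and leaving out each array.

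The members and the gene lists were chosen with earlier results of these data known. All tested members could be named. Of each other list the rule named separated genes, at most 5 by smallest p, with every tested histone variant, SLBP and NPAT. CASP8AP2, LSM10, LSM11, SYMPK, ZNF473, DCP2, ASF1A, CHAF1A, CHAF1B, NASP, RBBP4, RBBP7, HAT1 and H2BC12L were named after their values were seen.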

Additional observations from a re-analysis of the deposited data

How the results depend on the processing

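The median log2 fold change of the tested canonical histone genes was −0.0044, ran from −0.10 to 0.06 over the alternatives with all arrays and from −0.46 to 0.21 with 1 array left out, and the number with an adjusted p under 0.05 in limma was 0 in all 14 alternatives. The number separated by at least 1.5-fold was 1, against 5 without the level filter, 0 with the filter at the 70th percentile, 0 with plain probe sets and 2 to 6 with 1 array left out. H2AC14 is not tested in the settings that gave 0. H3C6 was at 0.0509 with median centring and 0.0557 with quantile normalization. With 1 array left out, log2 fold changes ran from −0.90 to 1.11 for H1-2, −0.60 to 0.95 for H2AC6, −0.46 to 0.10 for H2BC5, −0.53 to 0.78 for H2BC6, −0.60 to 0.17 for H2BC9, −0.0806 to 0.81 for H2BC12, −0.27 to 0.26 for H3C6 and −0.0075 to 0.63 for H4C11. H2AC14, H2AC25 and H2BC21 were below 0 in every alternative run on them. Medians of the transcription and decay lists were 0.01 without control array 2 and 0.0021 without rhSTIP1 array 1.

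Arrays of the same number deviated together from their group means (Pearson r 0.362 over genes). No label says whether they were handled as pairs, and with only 2 pairs this was not tested. The fits without the block ignore any such pairing. With the replicate block the histone median was −0.0044 and 0 members had an adjusted p under 0.05, while 247 of all genes did, against 0 without it, and the probe set of 14 H4 genes at −1.59 had an adjusted p of 0.00111. That set ran from −2.03 to −1.16 with 1 array left out. Over all genes 700 were separated, 2087 without the filter, 424 with the 70th percentile filter and 1062 to 1979 with 1 array left out.

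With 2 arrays a group, signals near the level for testing, such as those of H2AC14, cannot be told from array noise, and detection calls were not used here.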
